A study of Mus musculus with 167 samples.

Results

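The comparison concerned the livers of untreated mice that carried the human nuclear receptors CAR and PXR, set against the livers of untreated mice that had neither receptor. It used every control liver of both genotypes, 29 humanized and 27 knockout animals with 1 array each, which came to 56 of the 83 untreated livers of a series that holds 84 treated ones besides. The series was a drinking-water study of phenobarbital over 13 weeks with 4 weeks of recovery, and only the arms without the drug were used here. The humanized group (human CAR/PXR) held 5 animals on each of days 1, 7, 14, 91 and 119 and 4 on day 28. The knockout group (CAR/PXR knock-out) held 5 animals on days 1, 28, 91 and 119, 4 on day 14 and 3 on day 7. Wild-type controls, 27 animals over the same days, served as a further reference. All were male C57BL/6 mice from the same supplier, TaconicArtemis, and were 9 to 11 weeks old at the start, so that the day 119 livers came from the oldest animals. Both altered genotypes lacked the mouse receptors, while the sources used here do not give the promoter or the cell types that drive the human ones. No human receptor transcript was analysed here.

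CAR (mouse gene Nr1i3) and PXR (mouse gene Nr1i2) are nuclear receptors of the liver that bind DNA together with RXR. They are known for switching on genes that take up, oxidise, conjugate and export drugs, bile acids and steroids, the cytochrome P450 enzymes of the Cyp2b, Cyp2c and Cyp3a families first among them. CAR is held in the cytoplasm until an activator such as phenobarbital releases it, and the human receptors answer to partly different ligands than the mouse ones.

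Values are log2 expression, a difference is the humanized minus the knockout level with day as a block and its standard error (SE) after ±, and 1 log2 unit is a doubling of signal. Adjusted p-values are from limma, two-sided and adjusted by Benjamini-Hochberg over all 12622 genes tested, with calls made under 0.05. The 56 arrays had medians between 5.146 and 5.22, and no pair of arrays correlated below 0.985 over all 18193 genes, dim ones included. Hepatocyte markers were high in every liver, with a mean log2 level of 13.71 to 13.92 in the humanized and 13.76 to 14.00 in the knockout group. Of the 56 livers, 6 stood over 1 log2 unit above the median in pancreas acinar markers and 8 in skeletal muscle markers, which made 13 livers in all, 6 of them humanized and 7 knockout. No acinar or muscle marker was called, although all 14 acinar markers differed by negative values (median −0.24). The naming rules given below picked 147 called genes, not all of them shown in the text. Of these 147, 41 lost their call without these 13 livers, 61 without day 119, and 114 kept it whichever single animal was left out. List counts without the 13 livers, or without day 119, are given where they differ by much.

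In all, 1846 of 12622 genes were called (14.6%), of which 758 were higher (6.01%) and 1088 lower (8.62%) in humanized livers. Most of these differences were small. Their median size was 0.12 log2 units, 1734 of them were under 1.2-fold, and without the livers of day 119 the count was 768 genes. A 1.5-fold difference was reached by 18 genes (0.143% of the genes tested), 12 higher and 6 lower, and this count lay between 13 and 21 under the alternatives tried and without any 1 animal. The 12 higher genes were Slco1a4, Cyp2b10, Tomm40l, Nnt, Pcp4l1, Dbp, Cyp2c37, Cyp2b9, Cyp2c54, Cyp2c50, Serpinb1a and Hsd17b6. The 6 lower genes were Tmem223, Tmem267, Meig1, Socs2, Igfbp2 and Cyp2c55. In 7 genes (0.0555% of those tested) no humanized liver overlapped with a knockout liver, namely Slco1a4, Cyp2b10, Tomm40l, Nnt and Cyp2c50 on the higher side and Tmem223 and Igfbp2 on the lower side.

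**Figure D1:**
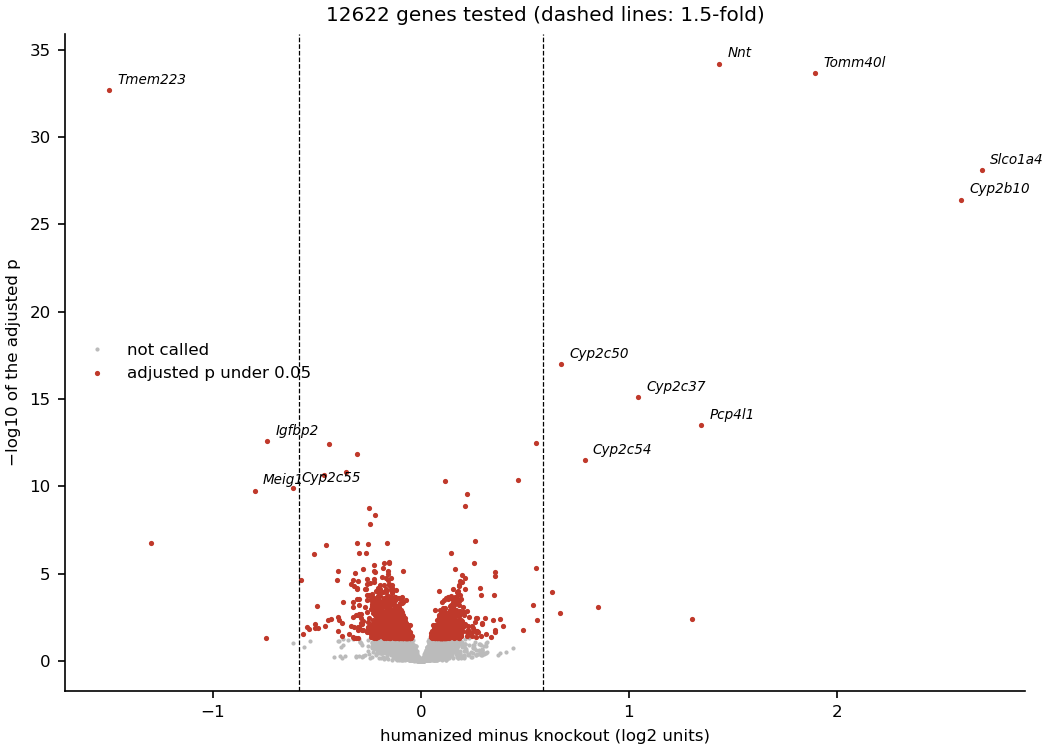
Difference between humanized and knockout controls (x axis, log2 units) against −log10 of the adjusted p (y axis) for the 12622 genes tested, 1 point per gene, with the 1846 called genes in red and the 1.5-fold limits dashed. Slco1a4, Cyp2b10, Tomm40l and Nnt stand apart on the right and Tmem223 on the left, while most called genes lie close to 0.

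The receptor genes themselves were compared first, as a check of the labels. Nr1i3 lay between 4.85 and 5.46 (median 5.07) in humanized livers and between 4.67 and 5.11 (median 4.94) in knockout livers, against 7.87 to 8.91 (median 8.43) in wild-type livers. Nr1i2 lay between 3.38 and 4.19 (median 3.76) in humanized livers and between 3.33 and 3.75 (median 3.59) in knockout livers, against 6.91 to 8.01 (median 7.52) in wild-type livers. By median, both altered genotypes sat more than 3 log2 units below wild type, with no overlap in either gene. Between humanized and knockout livers both genes were near the floor, above the array median on 6 of the 56 arrays for Nr1i3 and 0 for Nr1i2, and they entered the tested set through other livers of the series. The differences of 0.16 for Nr1i3 and 0.18 for Nr1i2, though called (adjusted p = 0.00427 and 0.00275), are differences at background level.

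With 1 probe set per gene, the largest difference was in uptake. Slco1a4 encodes an organic anion transporter that carries bile acids, steroids and drugs into the hepatocyte. Its level was 8.23 to 9.94 (median 8.99) in humanized livers and 5.72 to 7.43 (median 6.32) in knockout livers, and the groups did not overlap. The difference was 2.70 ± 0.101 (adjusted p = 7.93e-29), a 6.48-fold higher level, and it lay between 1.93 and 3.24 on the 6 days. Wild-type livers held 8.64 to 9.96 (median 9.13), and humanized livers differed from them by −0.10 (adjusted p = 0.484), while knockout livers were lower than wild type by −2.81 (adjusted p = 4.53e-40). These comparisons share the knockout or the humanized animals, so they are given side by side and are not independent of each other.

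Cyp2b10, the P450 most often used to read CAR activity in mouse liver, came next on the probe set used, and first on either of its others. It lay between 7.16 and 9.61 (median 7.97) in humanized livers and between 4.94 and 6.29 (median 5.49) in knockout livers, a difference of 2.60 ± 0.106 (adjusted p = 3.82e-27) without overlap. Wild-type livers held an intermediate 5.55 to 7.47 (median 6.57), so that humanized livers were above wild type by 1.53 (adjusted p = 1.29e-21) and knockout livers below it by −1.07 (adjusted p = 9.87e-14). The humanized level averaged 7.75 ± 0.36 on day 1 and 9.00 ± 0.38 on day 119 (SD, n = 5 each), against 5.26 ± 0.29 and 5.70 ± 0.30 in knockout livers on those days (SD, n = 5 each), but the test for a difference between days was not passed (adjusted p = 0.645). A pair of further probe sets for the gene, dimmer on average, gave larger differences of 4.63 and 4.91. In knockout livers the probe set used averaged 5.53 and these averaged 3.51 and 3.79, and 2.60 is the smallest of the 3 differences.

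The related Cyp2b9, a P450 that female mouse liver expresses more than male, was mostly near the floor. It lay between 3.74 and 7.04 (median 4.15) in humanized livers and between 3.45 and 4.62 (median 3.73) in knockout livers, and the difference was 0.85 ± 0.177 (adjusted p = 0.000773). The daily difference was 0.11 to 0.27 through day 28, then 1.58 on day 91 and 2.33 on day 119, with an adjusted p of 0.146 for the difference between days. Without day 119 the value was 0.53 (adjusted p = 0.0283). Cyp2b13, also female-biased, differed by 0.12 ± 0.038 (adjusted p = 0.0242). Transcripts of close relatives within the Cyp2b, Cyp2c and Cyp3a families may bind to each other's probes, which leaves the value of any single member uncertain.

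The Cyp2c enzymes, which oxidise drugs and arachidonic acid, moved in opposite directions within the family. Cyp2c37 lay between 11.30 and 12.16 (median 11.77) in humanized livers and between 9.70 and 11.46 (median 10.77) in knockout livers, and the difference was 1.04 ± 0.076 (adjusted p = 7.6e-16). Cyp2c50 lay between 12.89 and 13.44 (median 13.20) in humanized livers and between 11.73 and 12.81 (median 12.53) in knockout livers, a difference of 0.68 ± 0.044 (adjusted p = 1.03e-17) without overlap. Cyp2c54 was higher by 0.79 ± 0.072 (adjusted p = 3.09e-12), and the abundant Cyp2c29 by 0.21 ± 0.023 (adjusted p = 1.28e-09). All 4 were higher on each of the 6 days.

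Cyp2c55 went the other way. It lay between 9.06 and 10.53 (median 9.64) in humanized livers and between 9.26 and 10.66 (median 10.29) in knockout livers, a difference of −0.62 ± 0.063 (adjusted p = 1.28e-10) with the same sign on all 6 days. Wild-type livers held only 7.29 to 8.80 (median 8.40), so that Cyp2c55 was above wild type in both altered genotypes, by 1.30 in humanized (adjusted p = 1.13e-24) and 1.91 in knockout livers (adjusted p = 2.89e-35). Against wild type, Cyp2c37 differed by 0.08 in humanized (adjusted p = 0.404) and −0.97 in knockout livers (adjusted p = 2.09e-20), and Cyp2c50 by −0.19 (adjusted p = 6.45e-05) and −0.88 (adjusted p = 2.57e-32). For Cyp2c54 the values against wild type were −0.40 in humanized (adjusted p = 3.43e-06) and −1.20 in knockout livers (adjusted p = 2.61e-25).

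**Figure D2:**
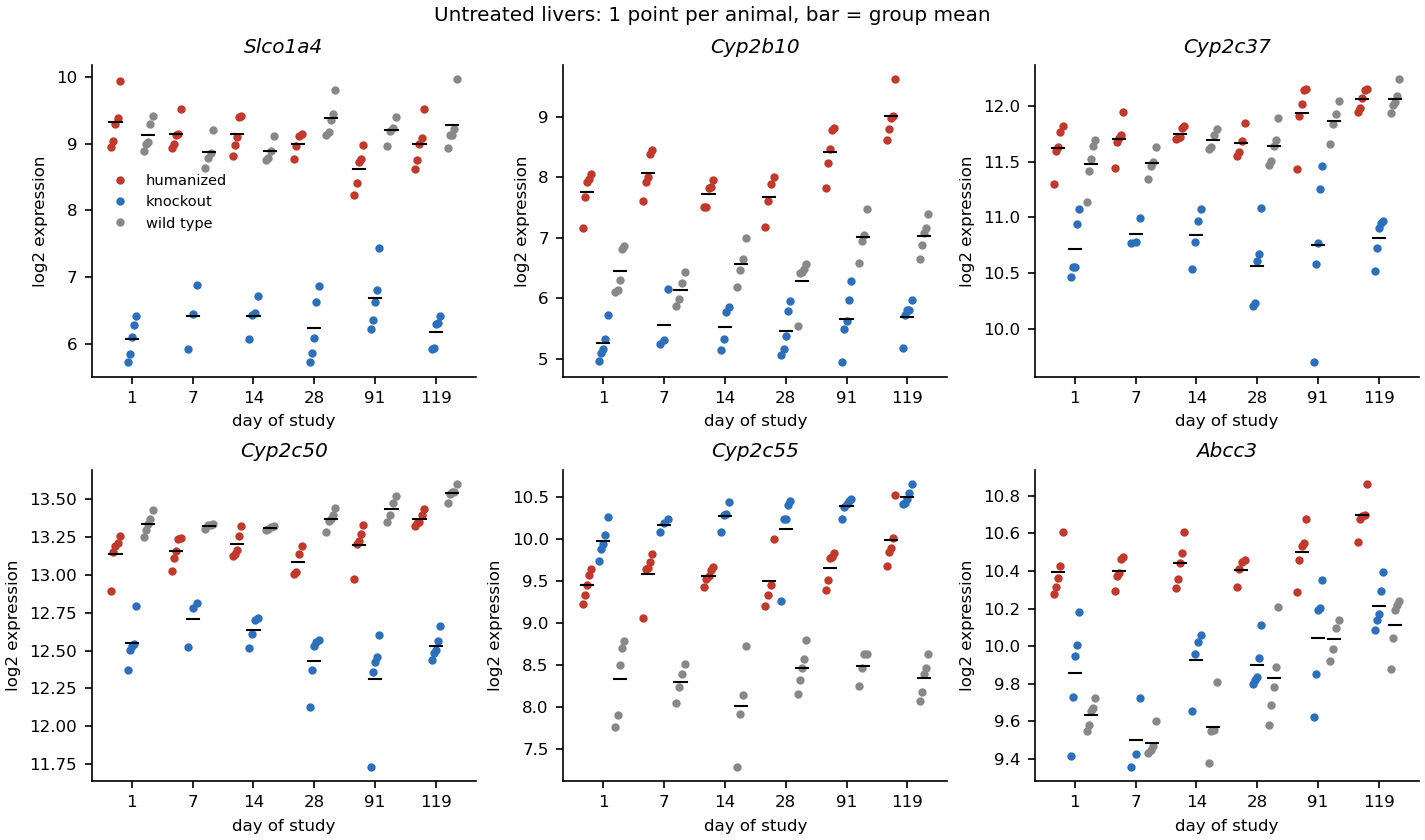
Log2 expression (y axis) of 6 genes of drug transport and metabolism in each untreated liver by day (x axis), with 1 point per animal and a bar at the group mean, humanized in red, knockout in blue and wild type in grey. Slco1a4, Cyp2b10, Cyp2c37, Cyp2c50 and Abcc3 are higher in humanized than in knockout livers on every day by group mean, and Cyp2c55 is lower.

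The promoters of 3 of these Cyp2c genes are shown because the genes lie on the same chromosome, 19, and differ in direction. Each window runs from 250 bases before to 50 bases after the start of the gene on the plus strand, from RefSeq (GRCm38.p6), at chr19:39992174-39992473 for Cyp2c37, chr19:40089429-40089728 for Cyp2c50 and chr19:39006769-39007068 for Cyp2c55. Capitals mark nuclear receptor half-sites, searched as AGGTCA and AGTTCA on both strands.
Cyp2c37: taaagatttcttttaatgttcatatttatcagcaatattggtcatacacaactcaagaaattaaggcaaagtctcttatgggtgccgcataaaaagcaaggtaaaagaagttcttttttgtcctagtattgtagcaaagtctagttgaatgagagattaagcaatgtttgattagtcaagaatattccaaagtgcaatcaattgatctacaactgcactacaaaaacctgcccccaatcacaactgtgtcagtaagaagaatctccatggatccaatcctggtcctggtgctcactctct
Cyp2c50: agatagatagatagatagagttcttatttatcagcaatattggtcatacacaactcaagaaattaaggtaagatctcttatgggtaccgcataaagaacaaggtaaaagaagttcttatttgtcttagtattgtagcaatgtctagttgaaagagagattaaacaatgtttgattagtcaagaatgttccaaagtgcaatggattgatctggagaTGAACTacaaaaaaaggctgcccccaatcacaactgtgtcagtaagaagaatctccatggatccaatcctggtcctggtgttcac
Cyp2c55: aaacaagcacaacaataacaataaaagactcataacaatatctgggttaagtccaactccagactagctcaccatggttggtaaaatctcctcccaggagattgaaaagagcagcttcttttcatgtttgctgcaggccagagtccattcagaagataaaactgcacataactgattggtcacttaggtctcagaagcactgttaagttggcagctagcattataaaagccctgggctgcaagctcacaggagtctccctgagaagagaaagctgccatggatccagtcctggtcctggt
The windows of Cyp2c37 and Cyp2c50, both higher in humanized livers, were 86.6% identical over 305 aligned columns, and that of Cyp2c55, which was lower, shared 49.7% with Cyp2c37 and 51.6% with Cyp2c50. Cyp2c50 held 1 half-site, a reverse-strand AGTTCA, and neither of the others held any. Among all 32851 promoter windows of the table, 27.7% held at least 1 half-site, and 21.8% did among the 10155 windows of tested genes. The called genes were close to the tested ones, with 22.0% of the called higher genes (127 of 576) and 21.1% of the called lower ones (186 of 883). Half-sites in direct repeat with 4 bases between them, the arrangement known for CAR and PXR, were found in 9 of all windows, in 1 of those of tested genes and in 0 of those of called genes, too few to compare. Neither Slco1a4 nor Cyp2b10 had a half-site in its window, and enhancers farther away were not searched.

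Among the other P450 genes known as targets of CAR or PXR, 3 of the 4 tested Cyp3a enzymes, which oxidise steroids and many drugs, were higher by smaller amounts. Cyp3a11 lay between 14.37 and 14.52 (median 14.43) in humanized livers and between 13.90 and 14.38 (median 14.31) in knockout livers, close to the top of the array's range. It differed by 0.14 ± 0.020 (adjusted p = 6.28e-07). Cyp3a25 was higher by 0.10 ± 0.022 (adjusted p = 0.00182) and the female-biased Cyp3a44 by 0.47 ± 0.046 (adjusted p = 4.1e-11), while Cyp3a13 differed by 0.06 and was not called (adjusted p = 0.322). Of the 15 P450 targets tested, 10 were higher and 1, Cyp2c55, was lower, or 73.3% called, and their median difference was 0.14, against −0.0031 over all genes tested. Of 26 other P450 genes, 2 were higher (Cyp2u1 and Cyp1a1) and 2 lower (Cyp2g1 and Cyp2c68), with a median of 0.006, and these 15.4% were close to the 14.6% of all genes. Without the 13 livers 0 of the 26 were higher by limma and 3 lower. Cyp2c65, a P450 near the floor in these livers, differed by 0.10 ± 0.051 and was not called (adjusted p = 0.199).

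Phase II and other drug enzymes were split. Of 40 conjugating enzymes tested, 4 were higher and 5 lower (22.5% called, against 14.6% of all genes tested). The glutathione transferases Gstt3 (0.30 ± 0.077, adjusted p = 0.00677) and Gsto1 (0.26 ± 0.037, adjusted p = 2.4e-06) and the glucuronosyltransferases Ugt3a1 (0.17) and Ugt2b34 (0.13) made up the higher ones. The lower ones were Gstm2 (−0.26), the sulfotransferases Sult5a1 (−0.25) and Sult1a1 (−0.15), Papss2 (−0.25 ± 0.028, adjusted p = 1.8e-09), which makes the sulfate donor, and Gsta3 (−0.07). Gstm3 and Gsta2, which conjugate glutathione, differed by 0.13 and 0.14 and were not called (adjusted p = 0.405 and 0.145), nor was the sulfotransferase Sult3a1 (−0.01). Of 36 further oxidising, reducing and hydrolysing enzymes, 4 were higher, all carboxylesterases (Ces2b 0.27, Ces2a 0.26, Ces1g 0.18 and Ces1e 0.14), and 5 were lower (Fmo2, Cbr1, Fmo1, Aldh4a1 and Ces1c). Without the 13 livers this list had 4 higher and 2 lower, and without day 119 it had 2 higher and 3 lower. The calls of Fmo2 and Ces1c were each lost when any of 37 single animals was left out.

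Abcc3 and Abcc4, export pumps on the blood side of the hepatocyte, were higher. Abcc3 lay between 10.28 and 10.87 (median 10.46) in humanized livers and between 9.36 and 10.39 (median 9.96) in knockout livers, a difference of 0.55 ± 0.047 (adjusted p = 3.14e-13), and Abcc4 differed by 0.55 ± 0.083 (adjusted p = 4.68e-06). Both were above wild type in humanized livers, by 0.69 and 0.96. By daily mean, knockout livers were also above wild-type livers in both genes on each of the 6 days. For Abcc3 the means were 9.92 in knockout and 9.57 in wild-type livers on day 14, and 10.045 and 10.035 on day 91. For Abcc4 they were 5.42 and 5.35 on day 14, and 6.01 and 5.32 on day 91. Of 23 transporters tested (21.7% called, against 14.6% of all genes tested), Abcc3, Abcc4 and Slco1a4 were higher. Slco1a1 (−0.25 ± 0.065, adjusted p = 0.00596), an uptake carrier that male liver expresses, and the monocarboxylate carrier Slc16a7 (−0.20) were lower. Other exporters of the blood side were not called, with 0.05 for Abcc6, 0.07 for Slc51a and 0.04 for Slc51b. The haem enzyme Alas1, which limits the supply of haem for P450 proteins, differed by 0.01 ± 0.261 (adjusted p = 0.984) and varied widely, from 8.57 to 12.43 in humanized and from 9.44 to 12.52 in knockout livers. The only called haem synthesis gene of 7 (14.3%) was Fech, the last enzyme of the pathway, at −0.16 ± 0.021 (adjusted p = 1.86e-07).

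The genes on either side of Nr1i3 were among those with the largest differences. Tomm40l, which encodes a relative of the mitochondrial import channel and is the next gene on 1 side of Nr1i3 in RefSeq order, lay between 7.90 and 8.41 (median 8.11) in humanized livers and between 5.69 and 6.72 (median 6.27) in knockout livers. The groups did not overlap, and the difference was 1.89 ± 0.054 (adjusted p = 2.14e-34). Its wild-type level lay between the others, at 6.90 to 7.62 (median 7.38). A second, dimmer probe set for Tomm40l, at 3.21 in humanized and 3.19 in knockout livers, differed by 0.02 and was not called.

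Pcp4l1, the next gene on the other side, encodes a small calmodulin-binding protein known from the brain. It lay between 5.16 and 7.65 (median 6.45) in humanized livers, between 4.58 and 5.31 (median 5.00) in knockout livers and between 5.01 and 5.83 (median 5.44) in wild-type livers. The difference was 1.35 ± 0.108 (adjusted p = 3.03e-14). Apoa2, an abundant HDL protein 2 genes from Nr1i3, was higher by 0.12 ± 0.012 (adjusted p = 5.24e-11), and Cfap126, 4 genes away, by 0.17 ± 0.034 (adjusted p = 0.00045). Of the 14 neighbours tested among 20, these 4 were higher and 0 lower, and the other 10 differed by −0.18 to 0.05. Around Nr1i2, 14 of 20 neighbours were tested and 1 was called, Hgd, an enzyme of tyrosine breakdown (−0.06 ± 0.022, adjusted p = 0.0442, lost when any of 27 single animals was left out), while the other 13 differed by −0.08 to 0.06. Over all genes tested, 14.6% were called. For these neighbours, the altered locus itself and the loss or gain of a receptor cannot be told apart.

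**Figure D3:**
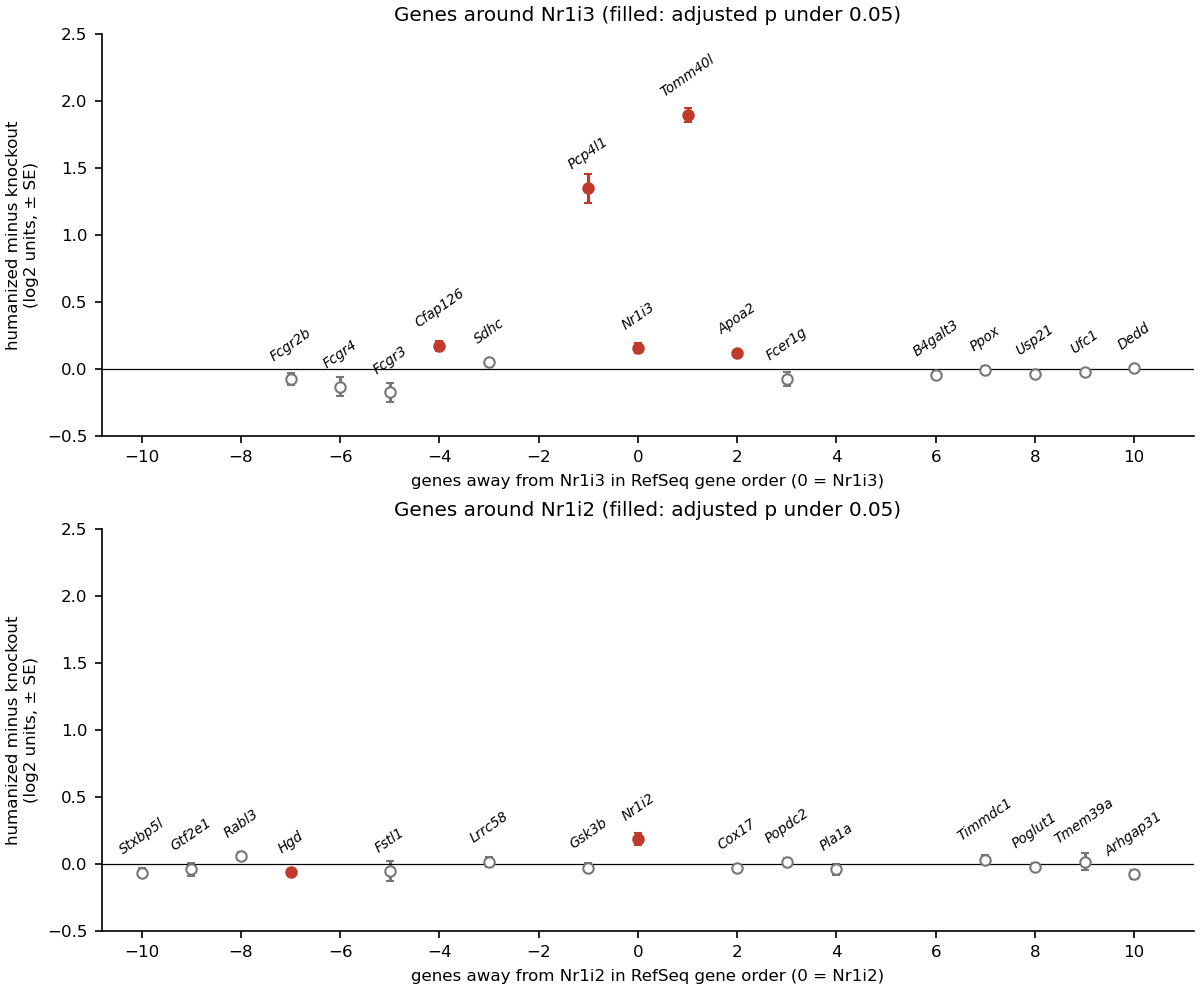
Difference between humanized and knockout controls (y axis, log2 units, bars ± SE) for the tested genes within 10 genes on each side of Nr1i3 (top) and Nr1i2 (bottom), by their place in the RefSeq gene order (x axis), with called genes filled. Tomm40l and Pcp4l1, on either side of Nr1i3, reach 1.89 and 1.35, and the tested neighbours of Nr1i2 lie between −0.08 and 0.06.

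Other large differences lay away from both receptors. Nnt encodes the mitochondrial transhydrogenase that makes NADPH, and its gene is known to differ between C57BL/6 substrains. It lay between 10.64 and 11.28 (median 10.84) in humanized livers and between 9.17 and 9.76 (median 9.47) in knockout livers, without overlap. The difference was 1.43 ± 0.039 (adjusted p = 6.32e-35), another bright probe set gave 1.30, and the remaining, dim one gave −0.05. Wild-type livers held 10.45 to 11.13 (median 10.79), so that humanized livers differed from them by 0.08 (adjusted p = 0.123) and knockout livers by −1.35 (adjusted p = 1.22e-45). The labels give C57BL/6 with no substrain, and substrain and receptor genotype cannot be told apart here.

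Tmem267, a membrane protein gene 3 places from Nnt in RefSeq order, lay between 4.66 and 7.51 (median 6.37) in humanized livers, between 6.99 and 8.76 (median 7.67) in knockout livers and between 5.80 and 7.68 (median 6.80) in wild-type livers. The difference was −1.30 ± 0.169 (adjusted p = 1.8e-07). Of 11 tested neighbours of Nnt, 4 were called, Tmem267 and 2 others lower and 1 higher, against 14.6% of all genes tested. This check was chosen after the values were seen. Tmem223, a mitochondrial membrane protein gene on chromosome 19, was the gene among the 6 lower ones in which humanized livers overlapped with neither other genotype. It lay between 6.80 and 7.67 (median 7.21) in humanized livers, between 8.45 and 8.95 (median 8.69) in knockout livers and between 8.53 and 8.99 (median 8.77) in wild-type livers. The difference was −1.50 ± 0.045 (adjusted p = 2.05e-33).

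**Figure D4:**
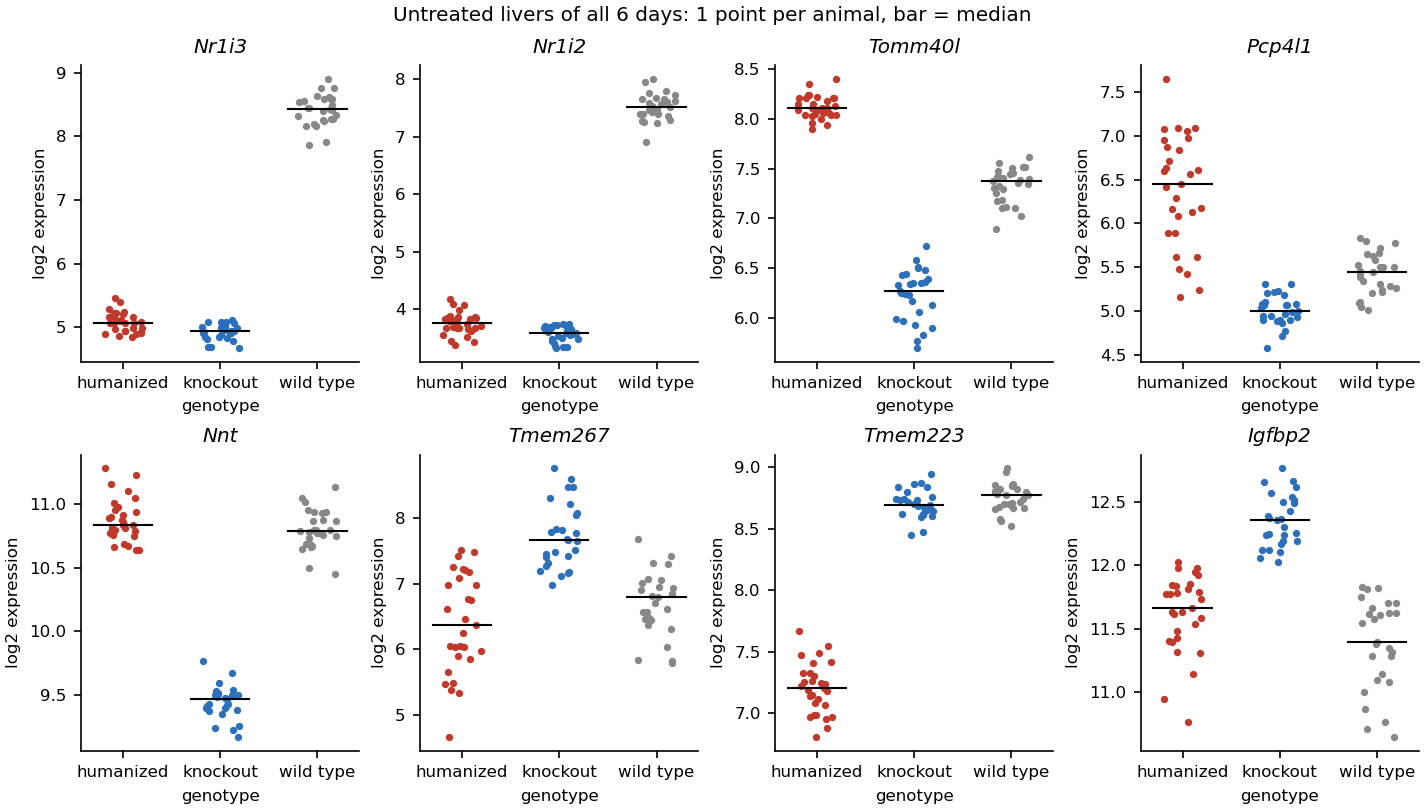
Log2 expression (y axis) in untreated livers of all 6 days by genotype (x axis), 1 point per animal with a bar at the median, for the receptor genes Nr1i3 and Nr1i2, the neighbours Tomm40l and Pcp4l1, and Nnt, Tmem267, Tmem223 and Igfbp2. Humanized and knockout livers do not overlap in Tomm40l, Nnt, Tmem223 or Igfbp2, and both are far below wild type in Nr1i3 and Nr1i2.

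Among metabolic genes, Igfbp2, a liver-secreted binding protein for insulin-like growth factors, was lower without overlap. It lay between 10.76 and 12.02 (median 11.66) in humanized livers, between 12.03 and 12.77 (median 12.35) in knockout livers and between 10.64 and 11.83 (median 11.39) in wild-type livers. The difference was −0.74 ± 0.062 (adjusted p = 2.49e-13). Pnpla3, a lipid droplet protein (−0.56 ± 0.181, adjusted p = 0.0275), and Elovl6, which lengthens fatty acids (−0.40 ± 0.121, adjusted p = 0.0202), were the 2 called genes of 30 in fat synthesis, and Fasn, fatty acid synthase, was not called (−0.05 ± 0.138, adjusted p = 0.832). The called share of this list, 6.67%, was under the 14.6% of all genes tested. Without the 13 livers high in acinar or muscle genes, 1 of the 30 was called, and without day 119 limma called 0.

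Of 31 genes of fatty acid oxidation and its receptor PPAR alpha, 5 were lower and 2 higher (22.6% called, against 14.6% of all genes tested). Pdk4, which limits glucose oxidation (−0.51 ± 0.134, adjusted p = 0.00741), Acot1 (−0.30), Acot4 (−0.28), Ppara itself (−0.20) and Cpt1a (−0.19), which brings fatty acids into mitochondria, were the lower ones. The other probe sets for Cpt1a (−0.02 and 0.09), Ppara (−0.10 and −0.06) and Acot4 (−0.16) were not called. Cyp4a12a, a male-biased fatty acid hydroxylase, was higher by 0.23 ± 0.070 (adjusted p = 0.0201), Acaa1a by 0.12, and Cyp4a14 was not called (0.19 ± 0.262, adjusted p = 0.662). Without the 13 livers 3 of the 31 were higher and 3 lower, with Pdk4 at −0.37 and not called (adjusted p = 0.112), and without day 119 there were 1 higher and 2 lower. Of 20 bile acid genes (15% called, against 14.6% of all genes), 3 were lower and 0 higher, namely Cyp39a1 (−0.43 ± 0.105, adjusted p = 0.00395), the FGF co-receptor Klb (−0.16) and Cyp27a1 (−0.12). Cyp7a1, which sets the rate of bile acid synthesis, differed by −0.39 ± 0.151 and missed the threshold (adjusted p = 0.0681), and Cyp8b1 differed by 0.11 (adjusted p = 0.337). A second, dimmer Cyp7a1 probe set, above the array median on all 56 arrays, was lower by −0.62 ± 0.128. Its adjusted p was 0.00103 by limma over all probe sets, so the Cyp7a1 result depends on the probe set. In cholesterol synthesis, also at 15%, 3 of 20 genes were lower, Pmvk (−0.30), Hsd17b7 (−0.20) and Srebf2 (−0.08), and 0 remained called without the 13 livers. The median of that list was −0.13.

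Sex-biased genes under growth hormone control did not share a direction. Of 18 female-biased genes tested (38.9% called), Cyp2b9, Cyp3a44, Ntrk2 and Cyp2b13 were higher and Abcd2 (−0.51 ± 0.146, adjusted p = 0.0138), Cyp39a1 and Fmo2 (−0.31) were lower. Of 22 male-biased genes (18.2% called), Cyp4a12a was higher and Socs2, Slco1a1 and Igf1 (−0.09) were lower. Socs2, an inhibitor of growth hormone signalling, lay between 6.13 and 10.14 (median 8.50) in humanized livers and between 6.58 and 11.22 (median 9.07) in knockout livers. Its difference of −0.74 ± 0.265 only just passed (adjusted p = 0.0483), and it was no longer called when any of 32 single animals, or the 13 livers together, were left out (adjusted p = 0.0942 without the 13). Among 30 nuclear receptors and partners, 3 were higher and 4 lower (23.3% called, against 14.6% of all genes tested). The higher ones were Nr1i2 and Nr1i3, whose differences were at background level, and Rxrb (0.09, adjusted p = 0.0471 by limma). The call of Rxrb was lost when any of 31 single animals was left out. The lower ones were led by Esr1, the oestrogen receptor (−0.46 ± 0.060, adjusted p = 2.45e-07), and Ppard (−0.30), and without the 13 livers 2 of the 30 were higher and 4 lower.

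The remaining genes at 1.5-fold were of mixed function. Meig1, known from the formation of sperm, lay between 4.25 and 5.61 (median 4.99) in humanized livers, between 4.80 and 6.74 (median 5.85) in knockout livers and between 3.54 and 5.02 (median 4.47) in wild-type livers. Its difference was −0.80 ± 0.082 (adjusted p = 1.76e-10). Serpinb1a, an inhibitor of neutrophil proteases, was higher by 0.67 ± 0.149 (adjusted p = 0.00174), and a second probe set gave 0.71. Hsd17b6, a steroid dehydrogenase, was higher by 0.63 ± 0.114 (adjusted p = 0.000118) with ranges of 8.54 to 11.08 in humanized and 8.72 to 10.53 in knockout livers, and its second, dim probe set gave 0.05. Under 1.5-fold, Rarres1, a retinoid-induced gene, was lower (−0.58 ± 0.094, adjusted p = 2.4e-05), as was Prnp, the prion protein gene (−0.44 ± 0.038, adjusted p = 3.96e-13).

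Circadian genes were called often, 10 of 19 tested (52.6%), with 6 higher and 4 lower, against 14.6% of all genes tested. Dbp, a clock-driven transcription factor of the day, lay between 5.29 and 10.34 (median 7.39) in humanized livers and between 4.91 and 10.47 (median 6.08) in knockout livers, so the groups overlapped over most of their range. Its difference was 1.30 ± 0.320 (adjusted p = 0.00422), with daily values of −0.10 on day 1, 2.57 on day 7 and 2.29 on day 91. Nr1d2, a repressor of the clock, was higher by 0.36 ± 0.105 (adjusted p = 0.0163). The activators Npas2 (−0.54 ± 0.155, adjusted p = 0.0142) and Arntl (−0.32 ± 0.115, adjusted p = 0.0487) and the repressors Cry1 (−0.40 ± 0.095, adjusted p = 0.00307) and Nfil3 (−0.30 ± 0.085, adjusted p = 0.0119) were lower. The call of Arntl was lost when any of 41 single animals was left out. All mice were killed between 9 and 11 a.m. per the labels, with no hour for a single animal, so that the hour of killing and genotype cannot be told apart for these genes. Without the 13 livers high in acinar or muscle genes, 2 of the 19 were called, 1 in each direction, and Dbp was not among them (0.97 ± 0.366, adjusted p = 0.0729).

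Among markers of other liver cells, those of Kupffer, endothelial and stellate cells were lower by small amounts where called. The called shares below stand beside 14.6% of all genes tested, and the lists are short. Of 14 Kupffer cell and macrophage markers, 5 were lower (35.7%) and 0 higher, led by Vsig4 (−0.25 ± 0.073, adjusted p = 0.0159), a complement receptor, and Cd68 (−0.23). All 14 differences were negative, with a median of −0.17, and the mean level of the list was 7.74 to 8.61 in humanized livers and 7.64 to 8.98 in knockout livers. Without day 119 limma called 0 of the 14, and without the 13 livers it called 2. Against wild type, 0 of these 14 were called in humanized livers (median 0.05). In knockout livers 7 of them were higher than wild type and 0 lower (median 0.22). Of 12 endothelial markers 3 were lower, Clec4g (−0.16), Tek (−0.15) and Kdr (−0.10), and of 11 stellate cell and fibroblast markers 4 were, led by Reln (−0.27 ± 0.037, adjusted p = 6.5e-07) and the matrix proteoglycans Lum (−0.24) and Dcn (−0.22). Signs were mixed in the stellate cell and fibroblast list, with 8 negative and 3 positive differences and a median of −0.04. The positive ones, Acta2 (0.17), Col1a1 (0.09) and Des (0.05), were not called. Without day 119, 2 endothelial and 2 stellate markers were lower. Other cell markers were called in the opposite direction. Of 5 T and NK cell markers, all positive, Cd3d (0.16) and Cd3e (0.15) were higher, as was Cldn7 (0.15) of 4 cholangiocyte markers. Cd3e was above the array median on all 56 arrays, but Cd3d on 21 and Cldn7 on 1. Cldn7 thus differed at background level and Cd3d close to it. Without day 119, 1 T and NK cell marker and 0 cholangiocyte markers were higher. Without the 13 livers, 1 marker of each list was higher. In whole liver, fewer cells of a type and less RNA per cell cannot be told apart. Of 20 perivenous and Wnt target genes 4 were lower (20% called, against 14.6% of all genes tested). The lower ones were Sp5 (−0.40 ± 0.066, adjusted p = 2.4e-05), Slc1a4 (−0.32), Gulo (−0.25) and Axin2 (−0.20). This list also had 4 lower genes without day 119 or without the 13 livers. The other, dimmer probe sets for Slc1a4 (−0.09 and −0.08) and Axin2 (−0.03) were not called.

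**Figure D5:**
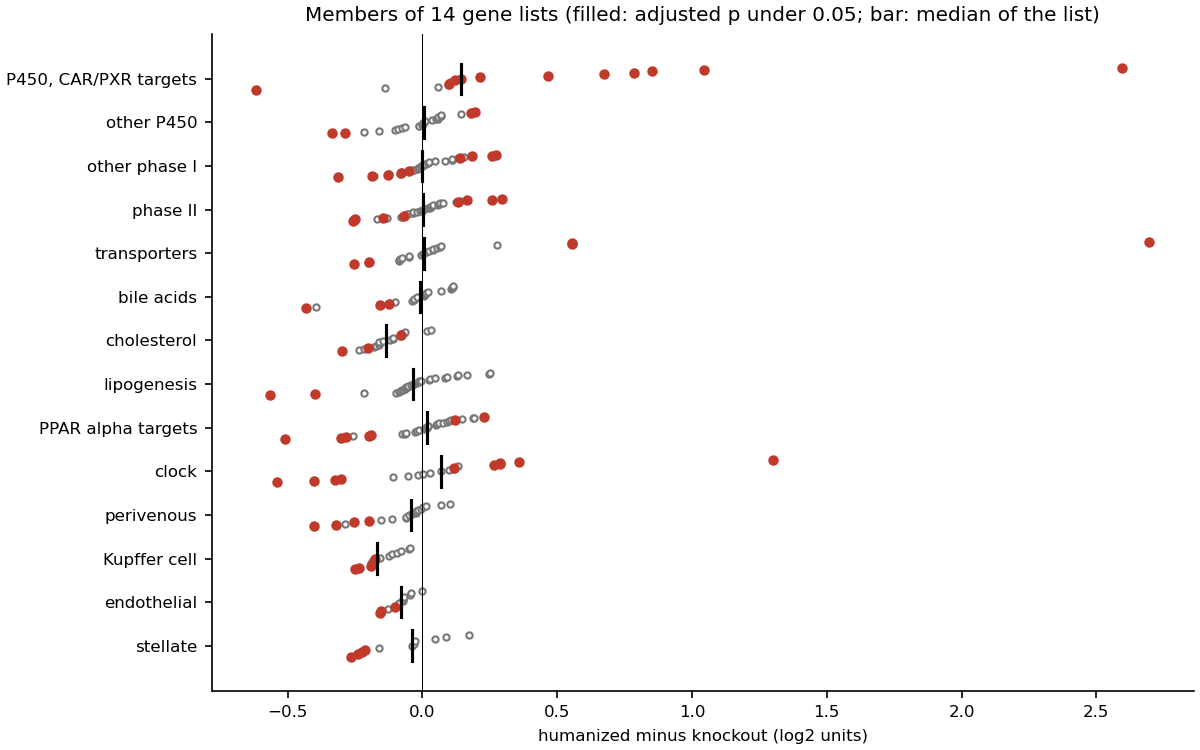
Differences between humanized and knockout controls (x axis, log2 units) for every tested member of 14 gene lists (rows), 1 point per gene, with called genes filled and a bar at the median of the list. The P450 targets of CAR and PXR lie mostly to the right with Cyp2b10 at 2.60, and the Kupffer cell and endothelial markers lie to the left of 0.

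Imprinted genes and cell cycle genes showed small differences in both directions. Of 13 imprinted genes (38.5% called), Meg3 (0.20 ± 0.056, adjusted p = 0.0144), Rian, Mest and Igf2 were higher and Sgce was lower (−0.19 ± 0.041, adjusted p = 0.00131), with 2 higher and 1 lower without the 13 livers and 1 each way without day 119. The calls of Igf2 and Rian were lost when any of 35 and any of 33 single animals, in that order, was left out. Meg3 and Rian are long non-coding RNAs of 1 imprinted domain. Of 26 S phase genes (23.1% called, against 14.6% of all genes tested), Cdc45 and Gins2 were higher by 0.12 each. Tk1, Pola1, Mcm7 and Pcna were lower by 0.13 or less in size. Gins2 was above the array median on 0 of the control arrays compared, so its difference was at background level. The other probe sets for Cdc45 (0.08), Gins2 (−0.04) and Pola1 (0.11) were not called. For Mcm7, 1 of 3 others was called (−0.18). Without day 119 the S phase list had 1 higher and 0 lower by limma. Gadd45b, a growth arrest gene, was not called (0.12 ± 0.045, adjusted p = 0.0665), and the hepatocyte product Alb differed by −0.002 ± 0.010 (adjusted p = 0.921). No member of the MHC, heat shock, immediate early or retinoid lists was called.

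Taken day by day, with the spread pooled over the 12 groups, the number of called genes was 36 on day 1 (0.285%) and 12 on day 7 (0.0951%). It came to 40 on day 14 (0.317%) and 14 on day 28 (0.111%). Day 91 gave 69 (0.547%), and day 119 gave 301 (2.38%). The count of day 119 depended on single animals. It was 67 without humanized animal 5026, 132 without humanized animal 5030, and 91, 106 and 163 without knockout animals 3030, 3029 and 3027. With quantile normalization between the arrays it was 96. Slco1a4, Cyp2b10, Tomm40l, Nnt, Cyp2c50, Tmem223 and Igfbp2 did not overlap between the genotypes over all 56 livers. Their lack of overlap on each of the 6 days follows from that and is not a separate result. A difference that changed between days was found for 1 gene (0.00792%), Mif, a cytokine and tautomerase, although 878 genes had an unadjusted p under 0.05, and its mean difference over the days was not called. Mif was higher in humanized livers on day 1, at 11.36 ± 0.11 against 11.02 ± 0.05 in knockout livers (SD, n = 5 each), and lower on day 91, at 11.29 ± 0.13 against 11.54 ± 0.07 (SD, n = 5 each). Its interaction passed (F = 9.22, adjusted p = 0.0434), but no gene did when any 1 of 38 of the 56 animals was left out.

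Against wild-type controls, in a model of the 3 untreated genotypes, humanized livers differed in 3425 genes (27.1%), of which 93 reached 1.5-fold, and knockout livers in 2774 (22.0%), of which 94 did. Of the 15 P450 targets, 10 were higher and 2 lower in humanized than in wild-type livers, and 6 were higher and 5 lower in knockout than in wild-type livers. Among transporters the counts were 5 higher and 3 lower in humanized livers and 5 higher and 5 lower in knockout livers. The cholesterol genes, lower in 3 of 20 in humanized against knockout livers, were higher than wild type in 14 of 20 in humanized livers and in 18 of 20 in knockout livers. Pla2g12a, a secreted phospholipase, was likewise above wild type in both, by 1.01 in humanized (adjusted p = 3.98e-24) and 1.41 in knockout livers (adjusted p = 4.33e-33), with −0.40 ± 0.061 between them (adjusted p = 7.31e-06).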

How the data were processed

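Liver RNA of each animal was hybridised to 1 Affymetrix GeneChip mouse array, with genotype, arm, day and animal number taken from the labels. The deposited values are log2 expression per probe set, made with RMA per the submitters' processing notes, which corrects background, normalizes by quantiles and summarises probes. The sources used here give neither its version nor whether all arrays were processed together. RMA compresses very dim and near-saturated probe sets, and the number of arrays limits the precision. The values ran from 2.11 to 15.07.

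Gene symbols came from the platform annotation: of 45101 probe sets, 34958 had 1 symbol, 932 several and 9211 none, and 34754 matched RefSeq genes of assembly GRCm38.p6, which renamed 0. Only probe sets with 1 symbol were used, and for each gene the one with the highest mean over all arrays of the series. Dim genes, above the array's own median on fewer than 3 arrays, were dropped, which kept 12622 of 18193 genes.

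Differences were fitted with limma 3.58.1 in R 4.3.3 (lmFit, eBayes) on the 56 control arrays, with day and genotype as terms and 49 residual degrees of freedom. Single days used 12 group means, the change between days an F test, and wild type a model of the 3 untreated genotypes. The fit was tested on simulated data. No 2 control arrays were near-identical: the lowest SD of the difference between arrays was 0.129 over 1540 pairs. Replicates are separate animals. No scan date was used.

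The naming rules picked the 20 largest differences each way among called genes with 1 sign on all days, called members of the drug metabolism, haem and nuclear receptor lists, up to 6 called members of each other list by size, interaction calls, the tested neighbours of both receptor genes, and a set named in any case, of which Cyp2a5, Ugt1a1 and Sult2a1 were not analysed here. Not all genes picked are shown in the text. The comparison, its 43 gene lists (862 entries, 699 tested) and these rules were chosen with earlier results of these data known. The muscle list was added later. A list is described by counts and its median.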

Additional observations from a re-analysis of the deposited data

Results flagged for a closer look

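Single livers that stood apart from the others of their genotype and day were sought in the 18 genes called at 1.5-fold or more, over 198 groups of 4 or 5 animals with Dixon's gap test at the 95% level. It marked 11 values, and chance marks about 1 group in 20.

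Among the P450 genes, Cyp2c50 was low in humanized animal 5004 on day 1 (12.89, others 13.15 to 13.26), with an acinar marker level of 6.57 against a median of 5.16, and in knockout animal 3025 on day 91 (11.73, others 12.36 to 12.60). Cyp2c54 was low in humanized animal 5022 on day 91 (11.46, others 11.98 to 12.16). Cyp2c55 was low in humanized animal 5006 on day 7 (9.06, others 9.64 to 9.83), a liver with a muscle marker level of 6.54 against a median of 4.34 over the 56 livers, and in knockout animal 3016 on day 28 (9.26, others 10.24 to 10.46).

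Dbp was high in humanized animal 5017 on day 28 (10.34, others 5.91 to 6.52), a liver whose muscle marker level was 9.20 against a median of 4.34 over the 56 livers. Pcp4l1 was low in humanized animal 5004 on day 1 (5.16, others 6.56 to 7.08), the liver with the acinar level of 6.57. Pcp4l1 was also high in knockout animal 3011 on day 14 (5.31, others 5.07 to 5.08), whose muscle marker level was 5.41. Socs2 was low in humanized animals 5003 on day 1 (6.82, others 7.96 to 8.32) and 5006 on day 7 (7.61, others 8.98 to 9.54), the liver with the muscle level of 6.54, and in knockout animal 3030 on day 119 (6.58, others 9.28 to 9.91). The part of the other tissues' RNA in these values was not tested.

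Mif was the only gene whose difference between humanized and knockout livers changed between days by the interaction test (F = 9.22, adjusted p = 0.0434 by limma).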

How the results depend on the processing

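The count of 1846 called genes was 17 when tested against a 1.2-fold change (10 higher, 7 lower) and 768 without day 119, and was within 1.5 times the reported count under the other alternatives and without any 1 of the 56 animals. Quantile normalization between the arrays gave 772 higher and 761 lower genes, against 758 and 1088 as reported. Of the 147 called genes picked by the naming rules, 17 kept their call under every alternative and 66 under every alternative but the 1.2-fold test. Of the 18 genes at 1.5-fold or more, 13 kept it under all and 17 under every leave-out. Ppox, at −0.01 and not called as reported, was at 0.0646 with the mean over probe sets. The gene changing between days was lost with quantile normalization and without day 119 (0 genes), 3 genes passed without the 13 livers high in acinar or muscle genes, an alternative chosen after seeing the data, and 0 to 3 without 1 animal.

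The daily counts with only that day's arrays were 14 on day 1, 20 on day 14, 6 on day 28, 19 on day 91 and 62 on day 119. Quantile normalization gave 96 on day 119, and leaving out the 13 livers gave 11 on day 14 and 309 on day 91. Without 1 animal they were 15 to 36 on day 1 (lowest without 5001, 21 without 3001), 7 to 15 on day 7 (lowest without 3009), 8 to 42 on day 14 (lowest without 3013, and 18 to 25 without 3012, 3011, 5013, 5014 or 5015), 42 to 104 on day 91 (42 without 3023, 43 without 5023, 104 without 3022) and 67 to 333 on day 119. The cause of these changes was not tested. No paired analysis was possible because animal numbers are not shared between genotypes. The number of arrays limits what small differences can be seen, and dim probe sets lie near background.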

Other observations

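Treated livers entered no comparison, and their levels are given as values for the genes that stood apart most. With phenobarbital, or on the recovery day after it, Nnt lay between 10.57 and 11.12 in 27 humanized arrays and between 9.25 and 9.91 in 28 knockout arrays. Tmem223 lay between 6.79 and 7.63 in the humanized and between 8.38 and 8.86 in the knockout arrays. Tomm40l lay between 7.95 and 8.45 in the humanized and between 5.51 and 6.65 in the knockout arrays. Igfbp2 lay between 11.05 and 11.99 in the humanized and between 12.05 and 13.13 in the knockout arrays. Slco1a4 lay between 8.68 and 10.79 in the humanized and between 5.64 and 6.92 in the knockout arrays. The treated groups did not overlap in any of these 5 genes. Meig1, lower in untreated humanized livers, had a median of 6.85 in the treated humanized and 5.76 in the treated knockout arrays, and the difference between arms was not tested.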
